A study of Mus musculus with 9 samples.

Results

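The proteasome is the protease complex that breaks down ubiquitin-tagged proteins, and its subunits and direct regulators were followed here in RNA from mouse mandibles. The genes were taken by name: every gene in the count table whose symbol begins with Psma, Psmb, Psmc, Psmd, Psme, Psmf or Psmg followed by a digit, which gave 49 of 27179 genes. Whole mandibles with their teeth had been pulverized from 5 WT mice and from 4 mice labelled *FcγRIIB*-/-, all male, 6 months old and on a C57BL/6 background, so each value is a mixture of bone, marrow, tooth, muscle and mucosa. The *FcγRIIB*-/- strain, which lacks the inhibitory receptor for IgG on B cells and myeloid cells, carries its deletion in every cell and was studied as a model of lupus. The study names control littermates for its blood counts, and the labels of the sequenced mice name neither litter nor batch.

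The 20S core is a barrel of α and β rings, and 3 of its β subunits carry the cutting sites: *Psmb5* (chymotrypsin-like), *Psmb6* (caspase-like) and *Psmb7* (trypsin-like). Under interferon γ, and at rest in lymphocytes and other leukocytes, these are replaced during assembly by *Psmb8*, *Psmb9* and *Psmb10*, which gives the immunoproteasome and peptides that fit better into MHC class I. The 19S particle, made of a base with ATPases and a lid, recognizes and unfolds the substrate, while chaperones help to build both parts and other caps (*Psme1* with *Psme2*, *Psme3*, *Psme4*, *Psmf1*) bind the core instead.

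The total was between 24158960 and 26787359 counts per mouse in WT and between 21453880 and 28991631 in the libraries labelled *FcγRIIB*-/-. The test was edgeR's quasi-likelihood fit over the 16329 genes that passed its filter on low counts, with Benjamini-Hochberg adjustment over all of them and a threshold of 0.05. Levels are in CPM, the count scaled to the TMM-normalized size of the library, as mean ± SD. Fold changes are on the log2 scale, for the libraries labelled *FcγRIIB*-/- over WT. *Fcgr2b*, the targeted gene, had 577, 954, 442, 630 and 529 counts in WT against 757, 562, 628 and 634 in mice labelled *FcγRIIB*-/-, and its log2 fold change was 0.21 (SE 0.20, adjusted p = 0.442). Without WT replicate 2, its highest mouse, the log2 fold change was 0.46 (adjusted p = 0.0131), the only 1 of the 9 fits without 1 mouse in which it passed. Leaving out each mouse gave 0.13 to 0.46, so that no fit had the gene lower under the label. The groups are therefore named throughout by their labels. Transcripts that mark bone and teeth were abundant in the libraries: *Col1a1* was the most abundant of 7 genes of bone-forming cells, and *Amelx*, the enamel protein, the most abundant of 4 tooth genes.

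Of the 49 genes, 48 passed the filter. The exception was *Psmb11*, the catalytic subunit of the thymus, which was listed at 0 or 1 count in each mouse (3 counts would give between 0.103 and 0.140 CPM in the libraries labelled *FcγRIIB*-/-). *Psma8*, the α subunit of the testis, passed but stayed at 0.280 to 0.694 CPM over the 9 mice. *Psmc3ip*, a cofactor of meiotic recombination that the naming rule takes in although it is no subunit, had a log2 fold change of 0.10 (SE 0.11, adjusted p = 0.522) and is counted among the 48.

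Most proteasome genes had somewhat more counts in the libraries labelled *FcγRIIB*-/-, and *Psmb9* of the immunoproteasome, the cap *Psme3* and the chaperone *Psmd5* had fewer. Of the 48 genes, 14 were higher (29.2%; 14% of all tested genes were higher), 3 were lower (6.25%, beside 19.3% of all tested genes) and 31 did not pass. The log2 fold change was above 0 for 40 of the 48, or 83.3%, beside 50.6% of all tested genes, and the median was 0.16, beside 0.01 for all tested genes. The median of the members was 0.10 without replicate 3 labelled *FcγRIIB*-/- and 0.09 with library totals alone. These changes were small, between -0.53 for *Psmb9* and 0.39 for *Psmb5*. With library totals alone in place of TMM, 8 of the 48 genes were higher and 4 lower, 33 were above 0, and over all tested genes 1309 were higher and 3781 lower, beside 2289 and 3144 with TMM. In 11 members every library labelled *FcγRIIB*-/- lay above every WT library (12.1% of all tested genes did so), and in 1, *Psme3*, every one lay below (17.5% of all tested genes). DESeq2, the tool used in the study, called 16 of the 48 higher and 2 lower, where it called 17.4% and 19.7% of all tested genes.

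**Figure D1:**
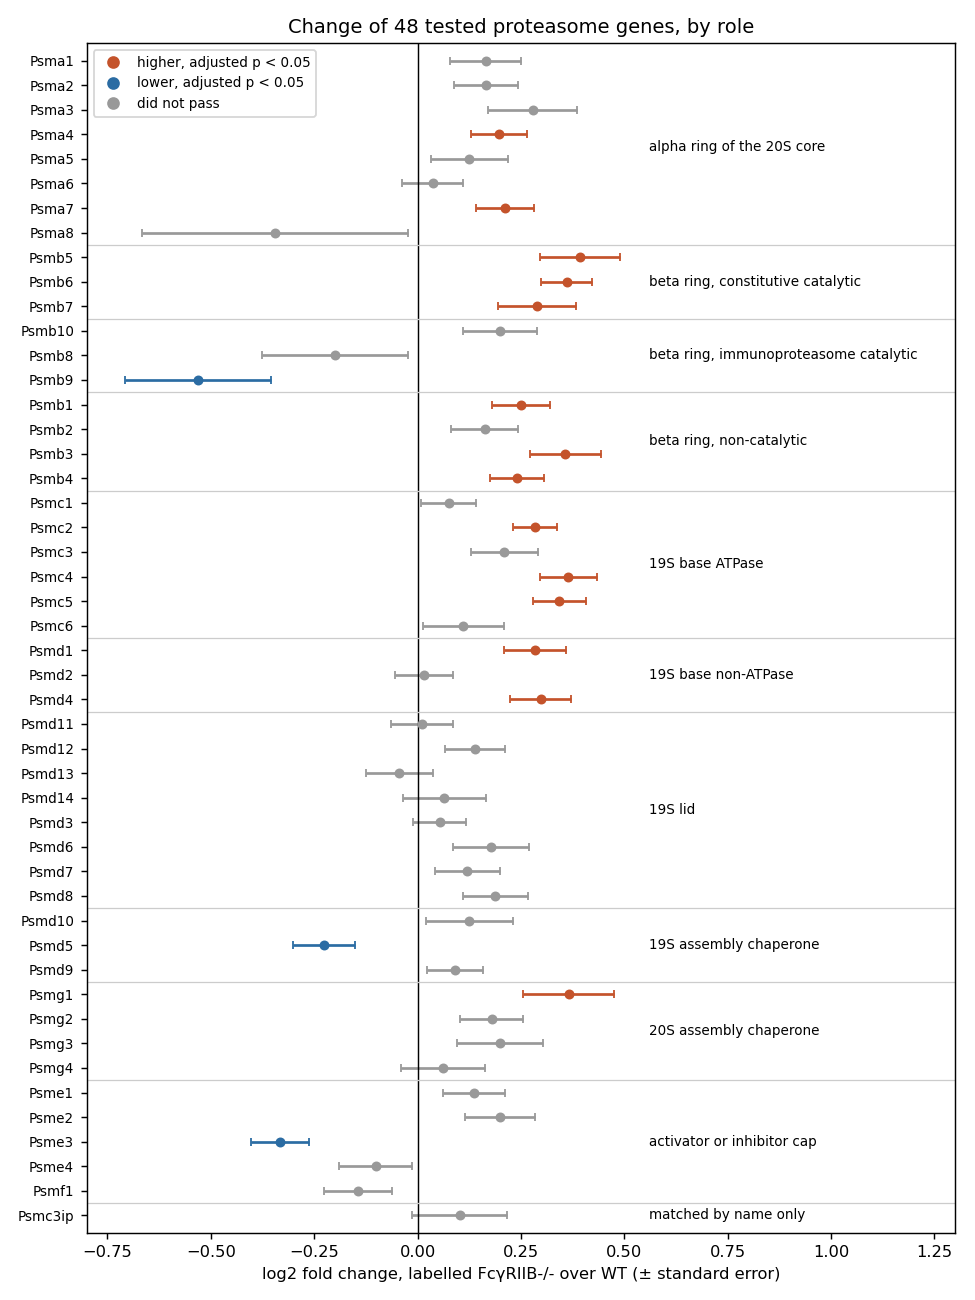
The 48 tested genes are grouped by role, with the log2 fold change of the libraries labelled *FcγRIIB*-/- (n = 4) over WT (n = 5) on the horizontal axis. Points are fitted values with their standard error, and colour marks the 14 genes called higher, the 3 called lower and the 31 that did not pass; the constitutive core and base lie mostly to the right of 0, and *Psmb9*, *Psme3* and *Psmd5* to the left.

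All 3 constitutive catalytic subunits were higher in the libraries labelled *FcγRIIB*-/-. *Psmb5* (gene identifier 19173, chr14:54614120-54617995 in RefSeq on GRCm38.p6, the build the study calls mm10) had 33.3, 28.1, 36.9, 29.8 and 31.5 CPM in WT and 43.3, 36.0, 47.0 and 41.2 CPM in the libraries labelled *FcγRIIB*-/-. The groups overlapped at 1 point, the highest WT mouse and the lowest mouse labelled *FcγRIIB*-/-, and the log2 fold change was 0.39 (SE 0.10, adjusted p = 0.0117). *Psmb6* (19175, chr11:70525324-70527858) had 90.5, 86.8, 95.1, 91.7 and 93.7 CPM in WT and 121, 106, 120 and 123 CPM in the others, with no overlap and a log2 fold change of 0.36 (SE 0.06, adjusted p = 0.00219). *Psmb7* (19177, chr2:38588046-38643952) had 98.4, 80.7, 97.5, 102 and 105 CPM in WT and 123, 101, 131 and 118 CPM in the others. Its lowest value labelled *FcγRIIB*-/- lay inside the WT range, and its log2 fold change of 0.29 (SE 0.09, adjusted p = 0.0378) did not pass when any of 6 of the 9 mice was left out. The calls of *Psmb5* and *Psmb6* held in all 9 fits that left out 1 mouse.

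The 3 immunoproteasome subunits did not follow their partners as a group. *Psmb9*, which takes the place of *Psmb6* (gene identifier 16912, chr17:34182030-34187330), had 11.9, 16.7, 9.48, 12.5 and 11.2 CPM in WT and 7.85, 7.07, 8.43 and 10.9 CPM in the libraries labelled *FcγRIIB*-/-. It was lower there by edgeR's quasi-likelihood test, with a log2 fold change of -0.53 (SE 0.18, adjusted p = 0.0394), although replicate 4 labelled *FcγRIIB*-/- lay above WT replicate 3. The call is weak, since it was lost in 7 of the 9 fits that left out 1 mouse, with adjusted p up to 0.102, and without WT replicate 2 the log2 fold change was -0.38 (adjusted p = 0.0806).

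*Psmb8*, which takes the place of *Psmb5* (16913, chr17:34198195-34201454), had 25.3, 38.5, 20.4, 23.9 and 24.5 CPM in WT and 22.8, 18.0, 26.2 and 25.2 CPM in the libraries labelled *FcγRIIB*-/-. WT replicate 2 stood alone at the top, the other 8 mice overlapped, and the log2 fold change of -0.20 (SE 0.18, adjusted p = 0.407) became -0.01 (adjusted p = 0.955) without that mouse. *Psmb10*, which takes the place of *Psmb7* (19171, chr8:105935728-105938392), had 23.3, 25.7, 21.9, 23.0 and 19.9 CPM in WT and 26.1, 23.0, 26.8 and 28.7 CPM in the others, so that its fitted change was upward, 0.20 (SE 0.09, adjusted p = 0.113), and passed only without WT replicate 2 (0.26, adjusted p = 0.0484).

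**Figure D2:**
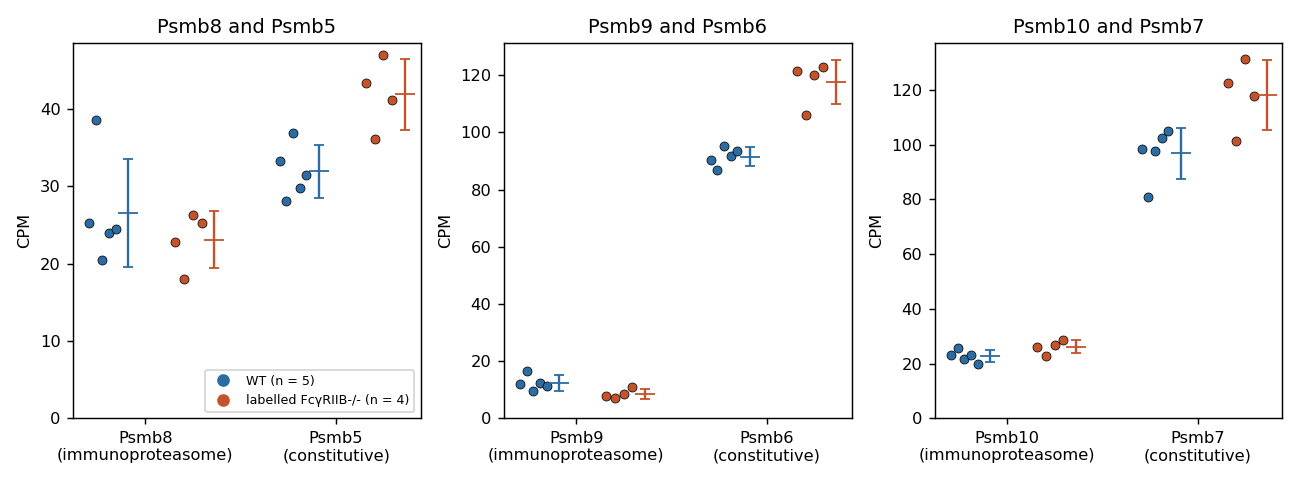
Each panel gives the level in CPM of an immunoproteasome subunit on the left and of its constitutive partner on the right, 1 point per mouse (WT, n = 5; labelled *FcγRIIB*-/-, n = 4), with mean and SD beside the points. The constitutive subunits *Psmb5*, *Psmb6* and *Psmb7* lie higher in the mice labelled *FcγRIIB*-/-, *Psmb9* lies lower, and the WT point of 38.5 CPM for *Psmb8* is replicate 2.

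*Psmb9* and *Psmb8* sit together in the MHC class II region of chromosome 17 with *Tap1*, a part of the pump that carries proteasome products into the endoplasmic reticulum. *Psmb9* and *Tap1* are transcribed away from each other from a stretch of 225 bases, and 969 bases separate the end of *Tap1* from the start of *Psmb8*. *Tap1* was lower as well, with 37.5, 44.7, 26.3, 30.2 and 32.1 CPM in WT and 25.1, 21.4, 21.4 and 26.5 CPM in the libraries labelled *FcγRIIB*-/-. The groups met at 1 point, 26.3 against 26.5 CPM, and the log2 fold change was -0.53 (SE 0.14, adjusted p = 0.0176), the same as that of *Psmb9* to 2 decimals, while *Psmb8* on the other side of *Tap1* did not pass. The shared stretch of *Psmb9* and *Tap1* (chr17:34187331-34187555, plus strand), the 150 bases before *Psmb8* (chr17:34198045-34198194, plus strand) and those before *Psmb5* (chr14:54617996-54618145, minus strand), read from RefSeq and written 5′ to 3′ in the direction of *Tap1*, *Psmb8* and *Psmb5*, are shown because the first pair was lower in both genes, and the other 2 stand before partners with different calls. Capitals mark matches to a searched motif.
Psmb9 and Tap1: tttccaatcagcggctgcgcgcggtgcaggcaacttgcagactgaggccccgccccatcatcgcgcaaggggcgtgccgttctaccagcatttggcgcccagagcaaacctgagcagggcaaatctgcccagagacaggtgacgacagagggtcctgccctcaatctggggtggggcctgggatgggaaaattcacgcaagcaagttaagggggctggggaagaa
Psmb8: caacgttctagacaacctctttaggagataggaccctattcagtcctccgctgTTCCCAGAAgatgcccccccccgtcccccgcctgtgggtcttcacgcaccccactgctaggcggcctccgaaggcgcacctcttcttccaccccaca
Psmb5: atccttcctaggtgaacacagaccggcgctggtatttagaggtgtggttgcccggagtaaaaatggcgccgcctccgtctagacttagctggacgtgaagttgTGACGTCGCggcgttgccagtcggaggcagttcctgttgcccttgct

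Of 3 motif cores searched on both strands in the 250 bases before the start, GAAA, any 2 bases and GAAA again (the interferon-stimulated response element) was found in 3.04% of 27025 promoters, TTCNNNGAA (the interferon γ activated sequence) in 7.18% and TGACNNNGC (the antioxidant response element, close to the site of *Nfe2l1*) in 10.1%. Among the 41 members with a promoter in the table, the first was found before 3 (*Psmb3*, *Psmd4*, *Psmd9*), the second before 2 (*Psmb8*, *Psmg1*) and the last before 5 (*Psmb5*, *Psmb6*, *Psmc6*, *Psmd12*, *Psmd9*). The match before *Psmb8* begins at position -97 and that before *Psmb5* at position -47 from the start. None of the 3 patterns occurs in the shared stretch of *Psmb9* and *Tap1*, which says only that these letters are not in that window.

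Set against their partners within each mouse, which removes the scaling of libraries, the immunoproteasome subunits gave 3 ratios. The log2 ratio of *Psmb9* to *Psmb6* was -2.92, -2.37, -3.32, -2.87 and -3.05 in WT and -3.94, -3.89, -3.82 and -3.48 in the libraries labelled *FcγRIIB*-/-. Every library labelled *FcγRIIB*-/- lay below every WT library, and the mean difference was -0.88 (SE 0.19), with p = 0.0159 by a two-sided exact permutation test over all splits of the 9 mice and an adjusted p of 0.0476 over the 3 ratios. That of *Psmb8* to *Psmb5* was -0.40, 0.45, -0.85, -0.32 and -0.36 in WT and -0.92, -0.997, -0.84 and -0.70 in the others, with a difference of -0.57 (SE 0.22, exact permutation p = 0.0317, adjusted p = 0.0476). Here WT replicate 3 lay among the libraries labelled *FcγRIIB*-/-, and the unadjusted exact p was between 0.0857 and 0.107 in 8 of the 9 repeats without 1 mouse. Without WT replicate 2 the difference was -0.38 for *Psmb8* to *Psmb5* and -0.74 for *Psmb9* to *Psmb6*. The ratio of *Psmb10* to *Psmb7* averaged -2.08 ± 0.27 in WT and -2.17 ± 0.11 in the others, a difference of -0.09 (SE 0.13, exact permutation p = 0.643).

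Levels of different genes were compared per kilobase of the principal transcript. In WT the order among the catalytic subunits was *Psmb6* (115 ± 4.02 CPM per kb), *Psmb7* (83.4 ± 8.15), *Psmb5* (35.5 ± 3.77), *Psmb10* (17.4 ± 1.62), *Psmb8* (16.3 ± 4.28) and *Psmb9* (9.14 ± 1.98). The neighbours *Psmb10* and *Psmb8* differed by less than their spread, whereas each other step exceeded the larger SD of its neighbours. On this scale *Psmb8* made up 31.4 ± 7.19% of the sum of *Psmb8* and *Psmb5* in WT and 23.3 ± 1.57% in the libraries labelled *FcγRIIB*-/-. For *Psmb9* with *Psmb6* the share was 7.40 ± 1.72% and 4.11 ± 0.596%, and for *Psmb10* with *Psmb7* it was 17.4 ± 2.81% and 16.4 ± 1.08%. *Psmb8* therefore had the largest share of its pair, and WT replicate 2 the largest single value, at 43.1%.

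The 31 subunits of the constitutive core and 19S particle (without *Psma8*, the immunoproteasome subunits and the chaperones) gave 13 higher, 0 lower by edgeR and 18 that did not pass. DESeq2 and an unadjusted p under 0.05 also gave 0 lower. Over all tested genes, 14% were higher and 19.3% lower. Of the 31 fold changes, 30 were above 0, with a median of 0.19. The summed level of the 31 was 2826, 2605, 2804, 2806 and 3029 CPM in WT and 3237, 2962, 3457 and 3212 CPM in the libraries labelled *FcγRIIB*-/-. The sums overlapped, since replicate 2 labelled *FcγRIIB*-/- lay below WT replicate 5, and the means were 2814 ± 150 and 3217 ± 203 CPM. As a share of all counts, with no normalization, this was 0.288 ± 0.0111% and 0.312 ± 0.0234%. WT replicate 2 was the lowest of all mice in 20 of the 31 subunits, and replicate 3 labelled *FcγRIIB*-/- the highest in 19. With 1 or the other of these mice left out 10 of the 31 were higher, and over all 9 fits that left out 1 mouse the number was between 10 and 15.

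In the α ring of the core, which gates entry to the barrel, 2 of 8 genes were higher, *Psma7* (log2 fold change 0.21, SE 0.07, adjusted p = 0.0388) and *Psma4* (0.20, SE 0.07, adjusted p = 0.0450), and each lost its call in 7 of the 9 fits without 1 mouse. *Psma3* had the highest fold change of the ring, 0.28, with a wider error (SE 0.11, adjusted p = 0.0679), and replicate 3 labelled *FcγRIIB*-/- had 135 CPM where the other 3 mice with that label had 94.1 to 101 CPM. Among the β subunits without a cutting site, 3 of 4 were higher: *Psmb3*, *Psmb1* and *Psmb4*, with *Psmb2* at 0.16 (adjusted p = 0.146). *Psmb3* had 55.1, 49.8, 51.5, 56.3 and 63.7 CPM in WT and 66.9, 64.3, 74.6 and 77.6 CPM in the libraries labelled *FcγRIIB*-/-. The groups did not overlap, and the log2 fold change was 0.36 (SE 0.09, adjusted p = 0.00982).

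In the base of the 19S particle, 3 of 6 ATPases, the motor that unfolds substrates, were higher: *Psmc4*, *Psmc5* and *Psmc2*. *Psmc4* had 73.6, 68.9, 74.7, 71.8 and 81.4 CPM in WT and 95.0, 85.8, 102 and 99.0 CPM in the libraries labelled *FcγRIIB*-/- (log2 fold change 0.36, SE 0.07, adjusted p = 0.00348). *Psmc5* had 94.2, 85.8, 92.5, 87.8 and 101 CPM in WT and 114, 112, 123 and 119 CPM in the others (0.34, SE 0.06, adjusted p = 0.00326). For both, as for *Psmc2* (0.28, SE 0.05, adjusted p = 0.00315), every mouse labelled *FcγRIIB*-/- exceeded every WT mouse. The lowest ATPase was *Psmc1*, at 0.08 (adjusted p = 0.404).

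Of the 3 base subunits without ATPase activity, *Psmd4*, a receptor for ubiquitin chains, and *Psmd1*, a scaffold, were higher, with log2 fold changes of 0.30 (SE 0.07, adjusted p = 0.0123) and 0.28 (SE 0.08, adjusted p = 0.0157). *Psmd4* had 93.8, 82.3, 90.4, 93.2 and 102 CPM in WT and 116, 103, 113 and 122 CPM in the libraries labelled *FcγRIIB*-/-, again without overlap. *Psmd2*, the other scaffold, was at 0.02 (SE 0.07, adjusted p = 0.879). None of the 8 lid subunits passed with either edgeR or DESeq2, and 1 had an unadjusted p under 0.05. Their log2 fold changes ran from -0.04 for *Psmd13* to 0.19 for *Psmd8* (adjusted p = 0.0908), with a median of 0.09. *Psmd14*, the deubiquitinase of the lid, was at 0.06 (SE 0.10, adjusted p = 0.650). The difference between lid and base was not tested.

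Of the assembly chaperones, *Psmg1* was higher, *Psmd5* was lower and the others did not pass. *Psmg1*, a chaperone that starts the α ring, had 13.9, 11.998, 13.6, 13.6 and 11.009 CPM in WT and 14.9, 15.1, 19.5 and 16.6 CPM in the libraries labelled *FcγRIIB*-/- (log2 fold change 0.37, SE 0.11, adjusted p = 0.0274), with no overlap between groups. Its call was lost without replicate 3 and without replicate 4 of that label. The other 3 genes of its family had log2 fold changes of 0.06 (*Psmg4*) to 0.20 (*Psmg3*) and did not pass. *Psmd5*, a chaperone that holds the ATPases apart until the base is built, was lower, with 36.4, 34.2, 32.3, 35.4 and 38.8 CPM in WT and 31.2, 29.3, 32.7 and 27.9 CPM in the others. Its log2 fold change was -0.23 (SE 0.07, adjusted p = 0.0380), replicate 3 labelled *FcγRIIB*-/- lay within the WT range, and the call held in 2 of the 9 fits without 1 mouse and not with DESeq2. *Psmd9* and *Psmd10*, which act at the same step, were at 0.09 and 0.12 and did not pass.

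Among the caps, *Psme3* was lower and the interferon-induced pair was not. *Psme3* (gene identifier 19192, chr11:101316213-101323537) forms a nuclear ring that opens the core without ATP or ubiquitin. It had 85.1, 80.4, 80.7, 80.8 and 98.0 CPM in WT and 66.2, 70.2, 68.7 and 64.8 CPM in the libraries labelled *FcγRIIB*-/-. The groups did not overlap, the log2 fold change was -0.33 (SE 0.07, adjusted p = 0.00569), and without WT replicate 5, the highest mouse, it was -0.25 (adjusted p = 0.0101). *Psme1* and *Psme2* together form the cap that interferon γ induces. *Psme1* had 57.9, 60.3, 54.7, 52.2 and 52.7 CPM in WT and 64.8, 54.4, 59.1 and 66.1 CPM in the others (0.14, SE 0.07, adjusted p = 0.178), and *Psme2* had 42.2, 43.5, 40.5, 36.2 and 37.1 CPM in WT and 43.5, 40.7, 50.8 and 48.5 CPM in the others (0.20, SE 0.08, adjusted p = 0.0921). *Psme4*, the cap linked to histone turnover, and *Psmf1*, an inhibitor of the core, were at -0.10 (adjusted p = 0.400) and -0.14 (adjusted p = 0.201). Of all 49 members, 13 overlap another annotated gene, *Psmb5*, *Psmb7*, *Psmc5*, *Psmd1* and *Psme1* among them, and because the strand setting of the counting is not given in the sources used here, reads of such pairs may not be separable.

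Genes that work with the proteasome moved little. For scale, 14% of all tested genes were higher and 19.3% lower. Of 11 partners outside the Psm names, *Pomp*, which brings the β subunits into the growing core, was higher in every library labelled *FcγRIIB*-/- than in WT (80.8 ± 4.76 and 102 ± 9.71 CPM, log2 fold change 0.33, SE 0.08, adjusted p = 0.00797). *Ube3c*, a ubiquitin ligase bound to the proteasome, was lower (-0.22, SE 0.07, adjusted p = 0.0360), 9 did not pass, among them the ubiquitin receptor *Adrm1* (0.05, adjusted p = 0.672), and the median was 0.08. Of 13 genes that supply or carry ubiquitin, 2 were higher, among them *Ubqln4*, a shuttle (0.23, SE 0.08, adjusted p = 0.0403). The median of that list was 0.03, and leaving out each mouse gave 0 to 4 higher.

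*Nfe2l1* encodes the factor that drives proteasome genes when proteasome activity is short, and its list held 9 genes, of which 0 were higher (by edgeR, by DESeq2 or at an unadjusted p under 0.05) and 1 was lower. *Nfe2l1* itself had 349 ± 24.4 CPM in WT and 359 ± 38.2 CPM in the libraries labelled *FcγRIIB*-/- (log2 fold change 0.04, SE 0.09, adjusted p = 0.746). The gene that fell was *Ddi2*, the protease that cuts the *Nfe2l1* protein into its active form, with 14.1, 15.4, 16.2, 16.4 and 17.2 CPM in WT and 9.11, 10.95, 9.24 and 5.07 CPM in the others. Its groups did not overlap and its log2 fold change was -0.88 (SE 0.18, adjusted p = 0.00513), with the call kept in each of the 9 fits without 1 mouse. Of 5 ubiquitin ligases of muscle wasting, *Fbxo30* was lower (-0.35, SE 0.11, adjusted p = 0.0350) and 4 did not pass.

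Downstream of the immunoproteasome, 12 genes of MHC class I presentation gave 4 lower and 2 higher, with a median of -0.19. Of all tested genes, 19.3% were lower and 14% higher. Leaving out each mouse gave 2 to 6 lower and 0 to 2 higher, and without WT replicate 2 the list gave 2 lower and 2 higher. With all mice the lower genes were *Tap1*, the class I heavy chains *H2-D1* and *H2-K1* (both -0.46, adjusted p = 0.0205 and 0.0463) and *Erap1*, which trims peptides (-0.37, adjusted p = 0.0244). *H2-D1* and *H2-K1* belong to a family of near-identical genes, and how their reads were divided is uncertain. The higher genes were *Pdia3* and *Calr*, chaperones of many glycoproteins besides class I (0.46 and 0.42, adjusted p = 0.0337 and 0.0343). *Tap2*, the other part of the pump, was at -0.11 (adjusted p = 0.417), and *Nlrc5*, the transactivator of class I and of *Psmb9* and *Tap1*, had 13.8 ± 4.64 CPM in WT and 9.45 ± 0.815 CPM in the libraries labelled *FcγRIIB*-/- (-0.54, SE 0.21, adjusted p = 0.0695). For *Nlrc5* the value was -0.31 (adjusted p = 0.124) without WT replicate 2, and it passed without WT replicate 3 (-0.65, adjusted p = 0.0257), with library totals alone (-0.62, adjusted p = 0.0416) and with DESeq2 (adjusted p = 0.0449).

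Among 9 genes of the interferon γ signal, 3 were lower and 0 higher, with edgeR and with DESeq2 (at an unadjusted p under 0.05, 4 and 0). Over all tested genes, 19.3% were lower and 14% higher. Leaving out each mouse gave 1 to 3 of the 9 lower. Among the 3 lower with all mice were *Irf8*, a factor of myeloid and B cells (-1.10, SE 0.22, adjusted p = 0.00423), and *Jak2*, a kinase of the receptor (-0.26, SE 0.09, adjusted p = 0.0421). *Jak2* did not pass without WT replicate 2 (adjusted p = 0.119), and *Irf1*, which acts on *Psmb8*, *Psmb9* and *Psmb10*, was at -0.13 (adjusted p = 0.523). Of 12 targets of interferon γ, *Ciita*, the transactivator of MHC class II, was lower (-1.35, SE 0.34, adjusted p = 0.0124), *Gbp3* was higher (0.44, SE 0.14, adjusted p = 0.0384), and the median was -0.13. Here, leaving out each mouse gave 1 to 3 lower and 0 to 1 higher. Over these lists, the calls of *Pomp*, *Ddi2*, *Irf8* and *Ciita* were kept in all 9 fits without 1 mouse and those of *Tap1* and *H2-D1* in 8, each lost without 1 mouse labelled *FcγRIIB*-/-. *Pdia3* kept its call in 5, *Gbp3* in 3, *Ube3c* and *Ubqln4* in 2, and *H2-K1*, *Jak2* and *Fbxo30* in 1.

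Several lists of cell type markers differed between the groups by more than the proteasome genes did. The leukocyte marker *Ptprc* (CD45) had 54.5, 117, 44.0, 51.1 and 83.5 CPM in WT and 27.2, 24.5, 40.0 and 34.0 CPM in the libraries labelled *FcγRIIB*-/- (log2 fold change -1.16, SE 0.28, adjusted p = 0.0110). Of 7 leukocyte markers 6 were lower, and their summed level, led by *Lcp1*, was 439, 720, 331, 418 and 637 CPM in WT and 227, 171, 261 and 243 CPM in the others. In whole tissue, fewer cells of a type and less RNA per cell cannot be told apart. WT replicate 2, with the highest values of *Psmb8*, *Psmb9*, *Tap1* and *Nlrc5*, also had the highest sum of leukocyte markers, the highest of 7 T cell markers (56.4 CPM, beside 9.60 to 18.7 in the other WT mice) and the highest of 7 B lineage markers (89.8 CPM, beside 26.9 to 40.3). All 7 T cell and all 7 B lineage genes had negative log2 fold changes, of which 2 for T cells and 6 for the B lineage passed the test. The T cell calls, *Cd2* and *Cd4*, were each kept in 3 of the 9 fits without 1 mouse, and without WT replicate 2 the log2 fold change went from -1.84 to -0.94 for *Cd2*, from -1.38 to -0.87 for *Cd4* (adjusted p = 0.0561) and from -3.15 to -2.01 for the B cell gene *Ms4a1*. In the mice labelled *FcγRIIB*-/- the T cell sum, led by *Cd4*, was 6.87, 6.10, 10.8 and 9.73 CPM and the B lineage sum, led by *Cd79b*, was 7.43, 4.07, 12.6 and 18.4 CPM. Only *Ms4a1* among the B lineage markers, and *Rhag* among the erythroid ones, had a count of 0 in any mouse. Macrophage markers, led by *Csf1r*, gave 4 of 7 lower and 0 higher, with sums of 407, 565, 373, 414 and 545 CPM in WT and 361, 322, 407 and 376 CPM in the others. Of these 7, 2 had log2 fold changes above 0, the larger *C1qb* at 0.20. What part these cells had in the levels of *Psmb8*, *Psmb9* and *Psmb10* was not tested.

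Set against *Ptprc* within each mouse, *Psmb8* and *Psmb10* were higher in the libraries labelled *FcγRIIB*-/-. The log2 ratio of *Psmb8* to *Ptprc* was -1.11, -1.60, -1.11, -1.09 and -1.77 in WT and -0.25, -0.44, -0.61 and -0.43 in the libraries labelled *FcγRIIB*-/-, a difference of 0.90 (SE 0.16). That of *Psmb10* to *Ptprc* was -1.22, -2.19, -1.01, -1.15 and -2.06 in WT and -0.06, -0.10, -0.58 and -0.24 in the others, a difference of 1.28 (SE 0.27). For both the groups did not overlap, and the exact permutation p was 0.00794, the smallest that these splits can give (adjusted p = 0.0119 over 3 ratios). For *Psmb9* the difference was 0.56 (SE 0.22, exact permutation p = 0.0635), with overlap. *Ptprc* thus differed by more between the groups than *Psmb8* and *Psmb10* did.

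**Figure D3:**
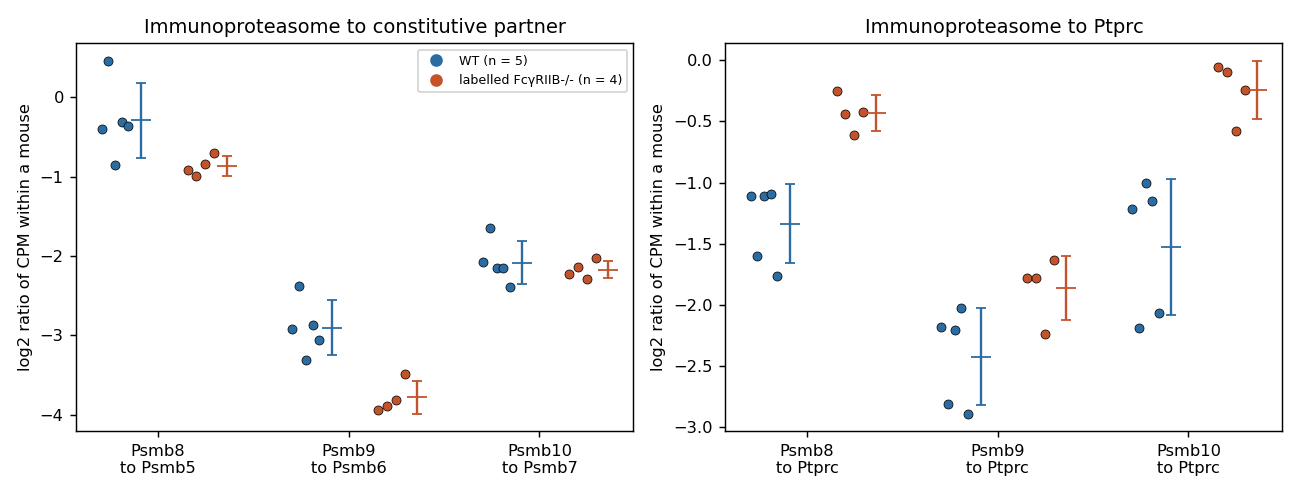
The left panel gives the log2 ratio of each immunoproteasome subunit to its constitutive partner within a mouse, the right panel its log2 ratio to the leukocyte gene *Ptprc*; each point is 1 mouse (WT, n = 5; labelled *FcγRIIB*-/-, n = 4), with mean and SD beside the points. Ratios to the partner lie lower in the mice labelled *FcγRIIB*-/- for *Psmb9* (by 0.88) and *Psmb8* (by 0.57), and ratios to *Ptprc* lie higher, by 0.56 to 1.28.

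Other tissues in the sample moved too. Of 10 markers of skeletal muscle 6 were higher, with sums, led by *Myh1*, of 20127, 8661, 13835, 17679 and 17404 CPM in WT and 34644, 19971, 20245 and 31858 CPM in the libraries labelled *FcγRIIB*-/-. WT replicate 2, lowest in 20 of the 31 constitutive proteasome subunits, was also the lowest in muscle markers, while replicate 3 labelled *FcγRIIB*-/-, highest in 19 of the 31, had a muscle sum below those of replicates 1 and 4. All 10 neutrophil and all 9 erythroid markers were lower: the sums, led by *S100a9* and *Hbb-bs*, were 1897 ± 916 and 2058 ± 157 CPM in WT and 271 ± 145 and 244 ± 174 CPM in the others. The erythroid list includes *Hba-a1* and *Hba-a2*, whose reads may be shared. Keratinized epithelium gave 6 of 9 lower and 1 higher (*Krt5*), with a sum led by *Krt14* of 11305 ± 5504 and 5052 ± 488 CPM. Tooth genes gave 3 of 4 higher (20276 ± 7178 and 42729 ± 9243 CPM). Genes of bone-forming cells gave 2 of 7 lower, *Ibsp* and *Sp7*, and 0 higher (33459 ± 6164 and 34751 ± 4782 CPM), where DESeq2 called 2 lower and 1 higher. Of the 7, 4 had log2 fold changes above 0, the largest *Bglap* at 0.60, and the median was 0.06. *Ibsp* went from -0.64 to -0.42 (adjusted p = 0.0793) without WT replicate 5, and its call held in 2 of the 9 fits without 1 mouse. The part of muscle, marrow, mucosa and tooth in the higher counts of the constitutive proteasome was not tested.

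**Figure D4:**
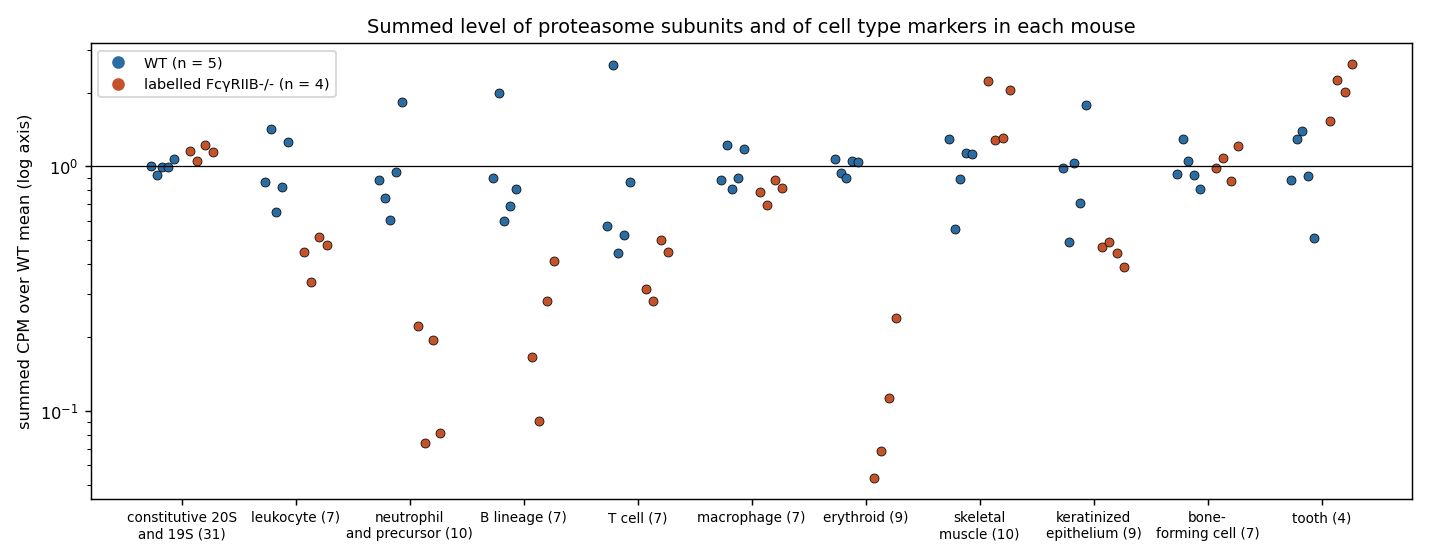
Summed CPM of the 31 constitutive core and 19S subunits and of each list of cell type markers in every mouse, divided by the WT mean of that sum, on a log axis; the number of genes is in parentheses. The proteasome sums stay close to 1 in all 9 mice, neutrophil and erythroid sums are far below 1 in the 4 mice labelled *FcγRIIB*-/-, and muscle and tooth sums lie above it in those mice.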

How the data were processed

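Poly(A) RNA of whole mandibles from 5 WT mice and 4 mice labelled *FcγRIIB*-/- was sequenced as directional libraries. Trimming by the authors used Trim Galore, mapping to mm10 used HISAT 02.1.0 and counting used featureCounts, and raw counts per gene were deposited. The annotation and strand setting are not given in the sources used here, and 1 further column of per-sample values, which matched no label, was not used.

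From these counts, edgeR 4.0.16 in R 4.3.3 (filterByExpr with a minimum count of 10, TMM, quasi-likelihood test of the label without covariate, Benjamini-Hochberg over 16329 genes) gave fold changes and adjusted p. DESeq2 1.42.0, other scalings, filters and thresholds, a replicate block and leaving out each mouse were alternatives. Ratios used log2 CPM with a prior count of 2 and a two-sided exact permutation test over all splits of the 9 mice. Lengths were those of GENCODE principal transcripts. Positions and promoters were those of RefSeq. Protein sequences were not analysed here. No 2 libraries of a group were near-identical.

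The members and lists were chosen with earlier results of these data known. Genes described in full were the catalytic subunits with their partners, *Psme1*, *Psme2* and *Psme3*, and up to 5 other members past the threshold with the largest change in each direction, then up to 4 genes per list and *Tap1*, *Tap2*, *Irf1*, *Nlrc5*, *Nfe2l1*, *Pomp*, *Adrm1*, *Ptprc* and *Fcgr2b*. A few genes that the rule names are not reported here. On simulated data the fit missed most genes that were given a change about as small as those of the called members. A gene that did not pass is not thereby shown to be unchanged. The mice are separate animals, and no batch is labelled.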

Additional observations from a re-analysis of the deposited data

Results flagged for a closer look

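A mouse that stood apart from the rest of its group was found in 11 of 142 groups examined (a gene's, ratio's or list's level within a label). The rule flags about 1 in 20 groups of normally distributed values. The groups here share the same mice, so this rate cannot tell whether 11 is more than chance. WT replicate 2 stood above the other WT mice in *Psmb8*, with 38.5 CPM beside 20.4 to 25.3 CPM, in the T cell sum, with 56.4 CPM beside 9.60 to 18.7 CPM, and in the B lineage sum, with 89.8 CPM beside 26.9 to 40.3 CPM. WT replicate 5 stood above the other WT mice in *Psme3*, with 98.0 CPM beside 80.4 to 85.1 CPM, in *Psmd14*, with 60.5 CPM beside 52.9 to 54.3 CPM, in the sum of genes that supply or carry ubiquitin, with 1720 CPM beside 1523 to 1573 CPM, and in the neutrophil sum, with 3471 CPM beside 1140 to 1798 CPM.

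Among the libraries labelled *FcγRIIB*-/-, replicate 3 was the high one in *Psma3*, with 135 CPM beside 94.1 to 101 CPM, and in *Psmg3*, with 14.8 CPM beside 11.5 to 11.98 CPM. Replicate 2 was the low one in *Psmb6*, with 106 CPM beside 120 to 123 CPM, and replicate 1 in *Psmg2*, with 20.2 CPM beside 22.4 to 22.9 CPM. Why these mice stood apart was not tested.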

How the results depend on the processing

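With library totals alone, 8 of the 48 members were higher (8 of the 31 constitutive core and 19S subunits) and 4 lower, beside 14, 13 and 3 with TMM, and 1309 of all tested genes were higher. At an adjusted p under 0.01, 5 members were higher, all 5 constitutive, and 1 lower, beside 869 and 1763 of all tested genes; in a test against a fold of 1.2 (glmTreat), 0 members were higher and 0 lower (4 and 1 at an unadjusted p under 0.05), beside 577 and 1634 of all tested genes. Leaving out each mouse gave 10 to 16 members higher, 1 to 3 lower and 10 to 15 constitutive subunits higher. For the ratios it gave -0.71 to -0.38 (*Psmb8* to *Psmb5*), -0.98 to -0.74 (*Psmb9* to *Psmb6*), -0.17 to 0.02 (*Psmb10* to *Psmb7*), 0.79 to 0.96 (*Psmb8* to *Ptprc*), 0.45 to 0.69 (*Psmb9* to *Ptprc*) and 1.12 to 1.41 (*Psmb10* to *Ptprc*).

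The replicate numbers do not pair the mice: deviations of mice sharing a number correlated at 0.10, 0.03, -0.11 and -0.07. A replicate block on the number was run without WT replicate 5, whose number no other mouse shares. It gave 16 members higher and 1 lower, and mean differences of -0.59 (*Psmb8* to *Psmb5*), -0.91 (*Psmb9* to *Psmb6*), 0.79 (*Psmb8* to *Ptprc*) and 1.15 (*Psmb10* to *Ptprc*). The exact sign-flip permutation test used there cannot go below p = 0.125. Leaving out WT replicate 5 with no block also gave 16 higher and 1 lower. The mean differences were the same to 2 decimals, as they must be for the same mice. The genes called were not all the same. Only the block lost *Psmg1* and gained *Psma3*, and both fits lost *Psmb9* and *Psmd5* and gained *Psmc3* and *Psmd8*. Over all tested genes, 1841 were higher with the block and 2155 without it. DESeq2, its size factors, the upper quartile and other filters left 11 to 16 members higher and 2 or 3 lower. For 71 named genes, 1062 of 1273 comparisons with an alternative kept the call or stayed without one, 206 lost the call and 5 gained it. None, 0, changed sign past the threshold. Genes without a call could change sign among the 1062, as *Irf1* did without WT replicate 2 (-0.13 to 0.05). The causes were not tested. Low counts limit what can be said of *Psmb11* and *Psma8*.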
